A study of Mus musculus with 16 samples.

Results

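The data below concern 10 interferon-response genes, *Ifi27l2a*, *Ifi27*, *Ifit1*, *Ifit3*, *Ifitm1*, *Ifitm2*, *Ifitm3*, *Isg15*, *Bst2*, and *B2m*, in mouse cells led from induced pluripotent stem cells (iPSCs) towards tenocytes, the cells of tendon. The 10 were taken by name from the 29629 Ensembl genes of the single-cell table and the 47729 of the bulk table, and all 10 are in both. They were picked with their levels after TGF-β2 already known, so their levels against T0 are given below as a description, with no test. Tests on them use other comparisons: later time points with each other, classes of cells within a plate, and tendon tissue. The steps between later time points reuse plates of the contrasts with T0, so their p-values are not free of that choice.

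The cells came from a clone of iPSCs reprogrammed from *ScxGFP* transgenic mouse embryonic fibroblasts, in which GFP follows the tendon transcription factor *Scx*. Mesodermal cells made from them (T0, no TGF-β2) were sorted before treatment, and the same kind of cells was sorted after culture with TGF-β2 (recombinant human, at 10 ng/ml) lasting 3 days (T3), 6 days (T6), or 9 days (T9). There was no untreated culture of the same age, and the later cells were released with collagenase, so TGF-β2, time, and release cannot be told apart in any comparison with T0. Each time point had 3 plates of 384 wells, which serve as replicates. Nothing in the sources says that the plates came from separate cultures, so p-values measure only the spread between these plates. The tissue was bulk Achilles tendon from 2-week-old littermates, 2 wild type (Wt) and 2 lacking *Scx* (homoKO).

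Single-cell libraries were made by CEL-Seq2, which counts the 3′ ends of mRNA molecules by unique molecular identifiers (UMIs). Of 4608 wells, 4594 held at least 200 detected genes and were kept, with 1147 T0, 1151 T3, 1149 T6, and 1147 T9 cells. All plates carry the same 384 well barcodes. Plates held between 1921125 and 4657093 UMIs, and the median per cell was 10175, 5703, 8794, and 7900 UMIs from T0 to T9. The bulk samples held between 11188270 and 12398560 counts. Levels in cells are given as CPM, in which the UMIs of a plate sum to 1e+06. On 7 plates, among them all 3 of T0, 9.28% to 15.1% of UMIs were mitochondrial, and on the 5 others 21.6% to 27.95%; these plates also differ in the share of reads that met no gene, and the split is shown by symbol in the plot of levels by plate. The markers of tenocytes summed to between 1461 and 1621 CPM over the T0 plates and to between 21657 and 52642 CPM over the T9 plates. The epithelial markers *Epcam*, *Cdh1*, *Krt8*, and others summed to between 413 and 527 CPM at T0 and to at most 129 CPM on any later plate, and those of pluripotent cells to between 371 and 780 CPM at T0 and to between 0.332 and 296 CPM at T9. Of the 12 immune cell markers, 4 (*Tyrobp*, *C1qa*, *C1qb*, and *C1qc*) are not in the single-cell table, and the rest summed to between 1.04 and 10.3 CPM over the 12 plates. The part that these cell types play in the levels below was not tested.

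Interferons are secreted proteins that cells release on sensing foreign nucleic acid. Type I and III interferons signal through their receptors and kinases of the JAK family to transcription factors that bind the interferon-stimulated response element (ISRE). Interferon gamma has a receptor of its own, and its genes often carry another element, the gamma activated site (GAS). Many of the induced genes also have a basal level without added interferon, and some are expressed by cells that have met none.

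The 10 genes cover several arms of this response. *Ifi27l2a* and *Ifi27* encode small hydrophobic proteins of the ISG12 family and are neighbours, at chr12:103442167-103443680 on the minus strand and chr12:103434211-103440239 on the plus strand of GRCm38. *Ifit1* (chr19:34640871-34650009) and *Ifit3* (chr19:34583531-34588731) encode cytoplasmic proteins of a family that acts against foreign RNA. *Ifitm1*, *Ifitm2*, and *Ifitm3* encode membrane proteins that hinder virus entry and lie close together at chr7:140967221-140969825, chr7:140954837-140955987, and chr7:141009586-141010770. *Isg15* (chr4:156199424-156200818) encodes a ubiquitin-like protein that is joined to other proteins. *Bst2* (chr8:71534255-71537456) encodes tetherin, which holds budding virus at the cell surface. *B2m* (chr2:122147686-122153083) encodes the light chain of MHC class I, the complex that presents peptides to T cells.

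Some of these genes are hard to tell apart by short reads at their 3′ ends. Of the 36-base windows in the last 500 transcript bases, 48.6% in *Ifitm2*, 23.4% in *Ifitm3*, and 21.1% in *Ifitm1* also occur in another gene, in each case including other *Ifitm* genes. In *Ifit3* 93 of 465 windows are shared, all with *Ifit3b*, and in *Ifi27l2a* the share is 3.74%, all with *Ifi27l2b*. It is 0 in *Ifi27*, *Bst2*, and *B2m*. The *Ifitm* and *Ifit3* levels are uncertain to that extent.

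RefSeq promoter sequence (GRCm38.p6) was at hand for 8 of the 10 genes, all but *Ifi27l2a* and *Ifi27*. The letters GAAANNGAAA, searched on both strands in the 250 bases before the start as the core of an ISRE, occur in 6 of the 8. The same letters occur in 34.4% of 125 other interferon-pathway genes and in 3.46% of all 27025 genes with a promoter. *Isg15* has 3 matches, *Ifit1*, *Ifit3*, and *Bst2* have 2 each, and *Ifitm2* and *B2m* have 1 each, whereas the windows of *Ifitm1* and *Ifitm3* hold none. The *Ifitm1* window, chr7:140967826-140968075, lies before a RefSeq start inside the gene span given above. The bases before that span were not searched. The 6 windows with a match are shown because they let the response element be read beside the levels. Each runs from 180 to 31 bases before the start, 5′ to 3′ on the gene's own strand, with the matches in capitals; where the match lies on the other strand it reads as the reverse complement, and overlapping matches form one run of capitals.
Ifit1, chr19:34640709-34640858, plus strand: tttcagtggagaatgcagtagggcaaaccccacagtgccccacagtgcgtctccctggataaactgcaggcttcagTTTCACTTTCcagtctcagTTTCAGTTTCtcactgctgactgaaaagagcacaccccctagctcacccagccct
Ifit3, chr19:34583349-34583498, plus strand: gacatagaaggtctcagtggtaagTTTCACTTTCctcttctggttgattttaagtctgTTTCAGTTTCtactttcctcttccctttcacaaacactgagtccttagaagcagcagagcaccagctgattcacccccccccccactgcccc
Ifitm2, chr7:140955992-140956141, minus strand: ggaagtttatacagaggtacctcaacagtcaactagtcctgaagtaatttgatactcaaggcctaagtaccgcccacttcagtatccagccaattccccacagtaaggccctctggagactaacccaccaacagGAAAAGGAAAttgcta
Isg15, chr4:156200849-156200998, minus strand: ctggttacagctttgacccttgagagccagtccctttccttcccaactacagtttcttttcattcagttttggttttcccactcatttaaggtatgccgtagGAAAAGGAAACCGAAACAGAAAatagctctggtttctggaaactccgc
Bst2, chr8:71537503-71537652, minus strand: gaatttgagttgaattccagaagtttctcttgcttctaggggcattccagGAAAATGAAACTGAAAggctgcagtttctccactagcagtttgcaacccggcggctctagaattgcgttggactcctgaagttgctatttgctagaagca
B2m, chr2:122147507-122147656, plus strand: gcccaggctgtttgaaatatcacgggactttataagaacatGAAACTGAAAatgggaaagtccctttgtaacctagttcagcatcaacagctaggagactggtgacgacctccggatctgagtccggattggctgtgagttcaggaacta

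In *Isg15* the overlapping matches lie 56 bases before the start, and in *Ifit1* a pair of separate matches ends 75 bases before it. The match of *B2m* lies 129 bases and that of *Ifitm2* 36 bases before the start. The GAS letters TTCNNNGAA, searched in the same way, occur in 1 of the 8 windows, that of *Bst2*, and in 8.13% of all genes. The palindromic Smad element GTCTAGAC, one form of the site bound by the SMAD proteins that carry TGF-β signals, occurs in none of the 8 and in 0.200% of all genes. A match is a string of letters and not a shown binding site, and a window without one says nothing about binding.

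In the cells, 6 of the 10 genes stood above T0 on every later plate: *Ifi27l2a*, *Ifi27*, *Ifitm3*, *Isg15*, *Bst2*, and *B2m*. *Ifitm2* did so only at T9, and *Ifit1*, *Ifit3*, and *Ifitm1* overlapped with T0 at every time point. Of the 13372 genes in the fit, 18.3% had all T3 plates, 17.6% all T6 plates, and 17.5% all T9 plates above all T0 plates. Since the 10 were chosen from these contrasts, nothing is read from their counts of 6, 6, and 7.

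The 6 differ in the course they took. *Ifi27l2a* had no UMI in any T0 cell, which allows a share of up to 0.262% of the 1147 cells; this limits cells with a UMI, not cells that express the gene. It stood at 92.1, 84.4, and 117 CPM on the T3 plates, at 256, 244, and 227 CPM at T6, and at 284, 320, and 235 CPM at T9. Against a floor of 3 UMIs over the T0 plates, 0.236 CPM, the T3 mean was at least 414-fold, the T6 mean at least 1024-fold, and the T9 mean at least 1182-fold higher. No plate of T3 reached the lowest plate of T6, and the T6 and T9 plates overlapped.

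*Ifi27*, its neighbour, was already present at T0, with 9.23, 9.03, and 12.9 CPM. It stood at 39.0, 57.1, and 61.7 CPM at T3, at 72.7, 79.2, and 64.9 CPM at T6, and at 45.6, 52.0, and 88.2 CPM at T9. The means were 5.06, 6.95, and 5.96 times that of T0, and the later time points did not order beyond their spread, except that every T6 plate was above every T3 plate.

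*Isg15* and *Bst2* had their highest mean at T3. *Isg15* had 13.1, 10.9, and 14.0 CPM on the T0 plates, 28.6, 70.0, and 49.5 CPM on the T3 plates, 42.2, 28.6, and 32.8 CPM on the T6 plates, and 15.5, 24.1, and 21.9 CPM on the T9 plates. All T9 plates lay below all T3 and all T6 plates and above T0, the lowest of them by little. *Bst2* stood at 55.6, 39.1, and 46.3 CPM at T0 and at 133, 286, and 163 CPM at T3, the second of them far above the others. Its T6 plates, at 159, 136, and 91.8 CPM, and its T9 plates, at 106, 128, and 129 CPM, overlapped with each other. The means of *Isg15* were 3.90, 2.73, and 1.62 times, and those of *Bst2* 4.12, 2.74, and 2.58 times, that of T0.

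*B2m* and *Ifitm3* were abundant throughout. *B2m* had 186, 189, and 179 CPM on the T0 plates, 355, 321, and 337 CPM on the T3 plates, 427, 429, and 372 CPM on the T6 plates, and 691, 656, and 562 CPM on the T9 plates. No 2 time points of *B2m* overlapped, and its mean was 1.83, 2.22, and 3.44 times that of T0. *Ifitm3* had 341, 362, and 366 CPM on the T0 plates, 425, 522, and 610.4 CPM on the T3 plates, 650.1, 675, and 608 CPM on the T6 plates, and 765, 644, and 529 CPM on the T9 plates, with T3, T6, and T9 overlapping. Its means were 1.46, 1.81, and 1.81 times that of T0.

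The other 4 genes did not separate in this way. *Ifitm2* had 301, 252, and 204 CPM at T0, 251, 350.0, and 370.4 CPM at T3, 293, 386, and 256 CPM at T6, and 498, 455, and 348 CPM at T9, where its mean was 1.72 times that of T0. *Ifitm1* ranged between 23.4 and 37.1 CPM at T0 and between 13.8 and 55.4 CPM later. *Ifit1* averaged 24.1 ± 13.6 CPM at T0 and then 24.2 ± 7.19, 21.3 ± 10.1, and 10.3 ± 2.39 CPM at the later time points (SD, n = 3). *Ifit3* averaged 2.72 ± 2.55 CPM at T0 and between 2.29 and 4.95 CPM later, from 23 to 52 UMIs in a time point.

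**Figure D1:**
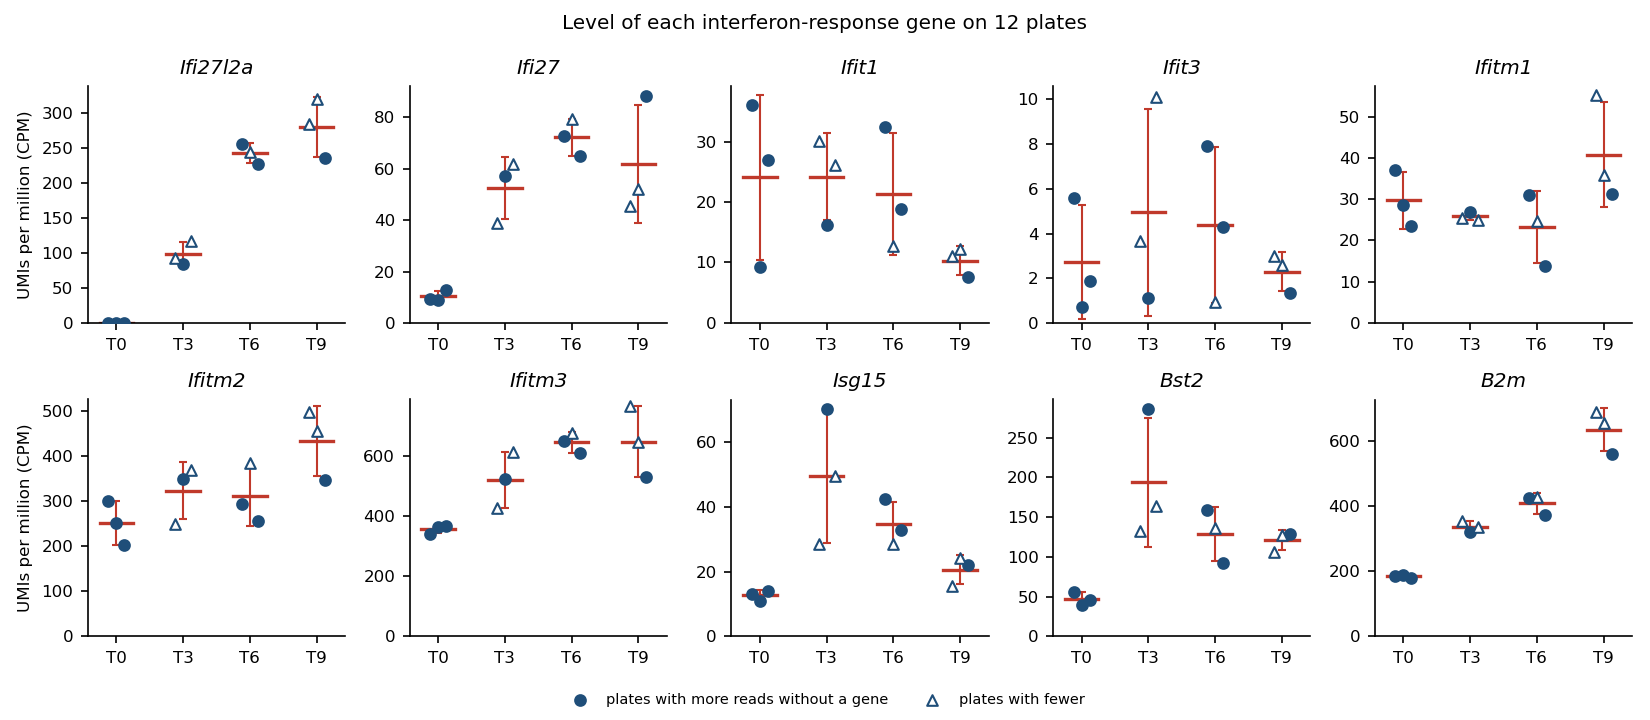
Level of each of the 10 genes in CPM (vertical axis, linear, from 0) on the 3 plates of T0, T3, T6, and T9; bars are the mean ± SD of 3 plates, and filled circles and open triangles mark the 2 sides of the library split. *Ifi27l2a* is at 0 on all T0 plates and between 227 and 320 CPM at T6 and T9, *B2m* goes from at most 189 CPM at T0 to at least 562 CPM at T9, *Isg15* and *Bst2* are highest at T3, and the points of *Ifit1* and *Ifit3* overlap between time points.

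The CPM scale carries a shift between some of the time points. On library totals the median log2 fold change over all genes tested was -0.21 for T3 against T0, -0.49 for T9 against T0, -0.27 for T9 against T3, and 0.01 for T6 against T3, while with TMM normalization, which centres most genes at 0, it was 0.01, -0.02, -0.01, and 0.03. Log2 fold changes against T0 therefore lie higher on the TMM scale: at T9 the log2 fold change was 2.31 for *B2m* (1.78 on totals), 1.87 for *Bst2* (1.36), 1.18 for *Isg15* (0.69), and -0.68 for *Ifit1* (-1.22). Of all genes called, 1755 were higher and 4468 lower at T9 than at T0 on totals, against 3155 and 2895 with TMM, and the numbers at T3 were 1524 and 2369 against 2279 and 2160. *Ifitm1* at T3 was at 0.03 with TMM and at -0.21 on totals, so its direction there depends on the scale.

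UMIs of the 10 genes were found in different numbers of cells. Each cell was thinned to 3000 UMIs, which kept 1071, 1038, 1081, and 1111 cells from T0 to T9, so that shares could be set side by side across depths. The mean share of *Ifi27l2a*-positive cells, those with 1 or more UMI, was 0 before TGF-β2 and then 18.4%, 41.6%, and 48.1% at T3, T6, and T9. Without thinning, 338 of 1151 cells at T3, 756 of 1149 at T6, and 769 of 1147 at T9 were positive. Thinned shares of *B2m* were 42.8%, 50.4%, 67.3%, and 77.5%, and those of *Bst2* 9.72%, 35.6%, 30.4%, and 27.2%. *Isg15* was found in 3.36%, 9.11%, 8.36%, and 6.04% of thinned cells, *Ifit1* in 4.41%, 3.93%, 4.21%, and 1.88%, and *Ifit3* in 0.662%, 0.679%, 0.570%, and 0.451%. Thus UMIs of *Ifi27l2a* and *B2m* were found in a large part of the T9 cells, while those of *Isg15*, *Ifit1*, and *Ifit3* were seen in fewer. At a fixed depth the share also follows the level of a gene. A lower share therefore does not show that fewer cells express it. Without thinning, *Isg15* was found in 204 of 1151 cells at T3 (17.7%), 249 of 1149 at T6 (21.7%), and 139 of 1147 at T9 (12.1%).

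Without thinning, the share stood above T0 on every plate for 2 genes at T3 (*Ifi27l2a* and *Ifi27*), 7 at T6, and 6 at T9. Of all genes, 3.37%, 10.8%, and 10.4% did so without thinning. T3 cells were the shallowest. After thinning, 4 genes stood above T0 on every T3 plate, with *Isg15* and *Bst2* added. The share over all genes was not computed for thinned cells, so nothing is read from that count. From T0 to T9 a thinned cell held UMIs of 1.74, 2.56, 3.11, and 3.29 of the 10 genes on average. Cells with 5 or more of the 10 made up 0.840%, 6.94%, 12.1%, and 15.1%, and cells with none 14.4%, 4.24%, 1.11%, and 1.08%. The UMIs of *Ifit1* and *Ifit3* lay in few cells: the 10 cells with the most held between 39.3% and 48.0% of the *Ifit1* UMIs of a time point and between 67.3% and 92.3% of those of *Ifit3*. For *B2m* the 10 highest cells held at most 5.92%, and for *Ifi27l2a* at most 12.9%. These shares rest on unlike totals, and fewer UMIs give a larger share. *Ifit3* had 23 to 52 UMIs in 13 to 26 positive cells of a time point, and *Ifit1* had 102 to 308 UMIs. *B2m* had 2348 to 6280 UMIs.

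**Figure D2:**
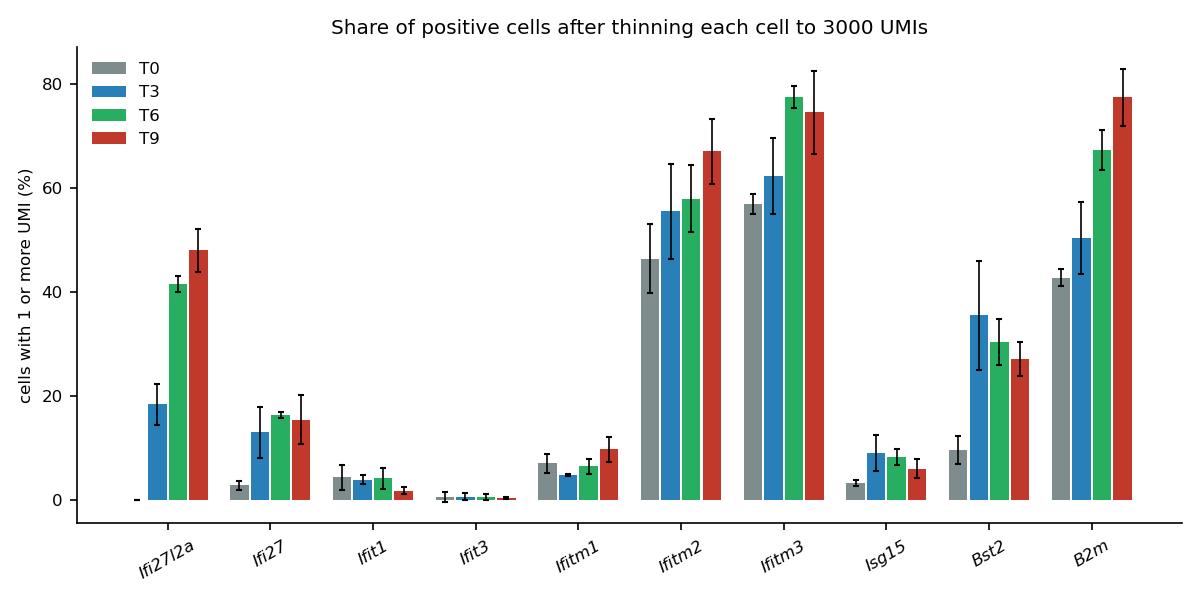
Share of cells (percent, vertical axis) with 1 or more UMI of each gene after thinning every cell to 3000 UMIs; bars are the mean over 3 plates and lines the SD. *Ifi27l2a* goes from 0 to 48.1% and *B2m* from 42.8% to 77.5% between T0 and T9, whereas *Ifit1* and *Ifit3* stay below 5%.

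Steps between later time points hold no T0 plate, and tests on the 10 genes are given for them. The T3 and T9 plates are also part of the contrasts that chose the 10. The p-values of the 10 in these steps are therefore not free of that choice. Changes were tested with edgeR's quasi-likelihood test over all 13372 genes, with Benjamini-Hochberg adjustment and a threshold of 0.05. Between T3 and T6, where 4.24% of all genes were called (2.61% higher and 1.63% lower), 1 of the 10 rose: *Ifi27l2a*, by 1.32 ± 0.27 on the log2 scale (SE, adjusted p = 0.0165). That call was lost when the first T6 plate, the first T3 plate, or the second T3 plate was left out, with adjusted p of 0.0503, 0.0621, and 0.0527. Between T6 and T9, where 1.62% of all genes were called, none of the 10 passed in edgeR, 3 had an unadjusted p under 0.05 (*Ifitm1*, *Ifitm2*, and *B2m*), and DESeq2 called 1, *B2m*. Over all genes the T6 to T9 calls were 125 higher and 92 lower with TMM and 27 and 63 on totals. The *B2m* step was 0.89 ± 0.23 on the log2 scale in edgeR (adjusted p = 0.0747). Without the third T9 plate edgeR called *Ifitm1*, *Ifitm2*, and *B2m*, and without the second T6 plate *Ifitm2* and *B2m*. With single plates left out, calls over all genes ranged from 291 to 890 (T3 to T6) and from 35 to 852 (T6 to T9). Calls of the 10 gained or lost in this way are therefore not read as a result about them.

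From T3 to T9, a comparison added after the levels were seen, the 10 genes parted. *Ifi27l2a* rose by 1.79 ± 0.27 on the log2 scale (adjusted p = 0.00103) and *B2m* by 1.19 ± 0.24 (adjusted p = 0.00360), while *Isg15* fell by 0.98 ± 0.24 (adjusted p = 0.0146); 14.1% of all genes were called in this comparison. On library totals the changes were 1.51, 0.91, and -1.28, and all 3 passed. The *Isg15* call was lost without the first T9 plate (adjusted p = 0.0726), the second T3 plate (0.0608), or the third T3 plate (0.0549). *Ifitm1* (0.98 ± 0.35, adjusted p = 0.0794), *Ifitm2* (0.73 ± 0.29, 0.117), *Ifitm3* (0.62 ± 0.25, 0.131), *Ifit1* (-0.95 ± 0.48, 0.227), *Ifi27* (0.45 ± 0.23, 0.236), *Bst2* (-0.37 ± 0.25, 0.382), and *Ifit3* (-0.86 ± 0.88, 0.601) did not pass. Without the third T9 plate *Ifitm1*, *Ifitm2*, and *Ifitm3* passed as well, making 6. Calls over all genes ranged from 1152 to 2228 with single plates left out. The steps T3 to T6, T6 to T9, and T3 to T9 share plates and are not independent of each other.

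To set the 10 genes in their pathway, 151 other genes were listed by role, of which 88 could be tested in the time course. At T3, 21 of the 88 were higher and 4 lower than at T0, where 33.2% of all genes were called, 17.0% higher and 16.2% lower. At T9, 32 were higher and 12 lower than at T0, where 45.2% of all genes were called, 23.6% higher and 21.6% lower. On library totals the splits were 15 higher and 5 lower at T3 and 20 higher and 15 lower at T9, so the balance at T9 depends on the scale.

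The interferons themselves were hardly seen. Of 14 ligand genes, 2 are in the single-cell table, *Ifna2* with 4 UMIs and *Ifng* with 3 UMIs in all cells together, and none could be tested. All 14 had 0 counts in the 4 tendon samples. A 3′ count at this depth cannot show a ligand made by few cells or for a short time.

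The receptors and their kinases were detected, and 6 of 9 were higher at T9 than at T0, with none lower. *Ifnlr1*, a chain of the interferon lambda receptor, rose by 2.68 ± 0.74 on the log2 scale (edgeR adjusted p = 0.00909), *Ifngr2*, a chain of the interferon gamma receptor, by 2.01 ± 0.22 (5.40e-06), *Il10rb*, which the interferon lambda receptor shares with interleukin-10, by 1.84 ± 0.31 (0.000252), and *Ifnar2*, a chain of the type I receptor, by 1.37 ± 0.22 (0.000172). At T3, 4 of the 9 were already higher. On library totals 4 of 9 were higher at T9 and 2 at T3.

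Of the STAT and IRF factors, 9 were tested. At T9, 2 were higher and 2 lower than at T0. *Irf3*, which acts below the nucleic acid sensors, fell by 0.89 ± 0.25 on the log2 scale (adjusted p = 0.00930). *Stat2* (0.70 ± 0.24, 0.0289) and *Irf2* (0.66 ± 0.19, 0.0117) rose with TMM, but on library totals none of the 9 was called higher and 2 were lower.

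MHC class I and the proteins that load it, the group closest to *B2m*, were higher at T9 for 8 of 13 genes, with a median log2 change over the 13 of 1.27 beside -0.02 over all genes. They included *Psmb8*, a subunit of the immunoproteasome (2.03 ± 0.72, adjusted p = 0.0323), *Tap1*, which carries peptides into the endoplasmic reticulum (1.74 ± 0.36, 0.00134), *H2-T22*, a class I gene (1.71 ± 0.61, 0.0337), and *Tapbp*, which holds empty class I molecules ready (1.68 ± 0.28, 0.000247). *Calr*, *Canx*, and *Pdia3*, general folding proteins of the endoplasmic reticulum, are among the 8. On library totals 4 were higher and 1 lower.

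The effector genes moved in both directions. Of 35 tested, 11 were higher and 7 lower at T9 than at T0, with a median log2 change of 0.01. On library totals 8 were higher and 8 lower, with a median of -0.44. *Lgals9*, which encodes a galectin, rose from 11.1 ± 8.04 to 438 ± 52.1 CPM, by 5.79 ± 0.38 on the log2 scale (adjusted p = 4.79e-08). *Ifitm10*, a relative of the *Ifitm* genes above, rose by 3.87 ± 0.62 (0.000195), *Isg20*, an exonuclease, by 3.22 ± 0.65 (0.00110), and *Ifi30*, a lysosomal thiol reductase, by 3.19 ± 0.27 (5.88e-07). *Ifi204*, a nucleic acid sensor, had 61 UMIs on the T0 plates, none at T3 or T9, and 4 at T6. *Rsad2*, which encodes viperin, fell by 4.22 ± 0.81 (0.000743), its neighbour *Cmpk2* by 2.91 ± 0.72 (0.00474), and *Rnf213* by 1.35 ± 0.20 (8.38e-05). At T3 the split was 5 higher and 2 lower, with *Lgals9* (4.58 ± 0.37, 6.40e-07), *Ifi44* (3.94 ± 0.38, 3.30e-06), and *Oasl2* (2.54 ± 0.18, 2.46e-07) the largest rises.

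The genes that join ISG15 to its targets and the genes of the interferon gamma GTPases completed the list. *Uba7*, the activating enzyme for ISG15, rose by 3.48 ± 0.37 at T3 (adjusted p = 1.05e-05) and by 3.35 ± 0.37 at T9 (7.69e-06), and *Ube2l6*, the conjugating enzyme, by 1.54 ± 0.31 (0.00207) and 1.10 ± 0.32 (0.0122). *Usp18*, which removes ISG15 and dampens the receptor, fell by 0.82 ± 0.24 from T0 to T9 (0.0136). On library totals 1 of the 4 genes for joining and removing ISG15 was higher and 1 lower at T9, against 2 and 1 with TMM. Of the 10 tested GTPases, chemokines, and related genes, 4 were higher and 1 lower at T3, among them *Gbp3* (2.10 ± 0.45, 0.00270) and *Iigp1* (1.28 ± 0.28, 0.00355), and 1 was higher and 2 were lower at T9. On library totals 3 were higher and 1 lower at T3, and 1 was higher and 3 lower at T9. Of the 8 tested nucleic acid sensors and their signalling proteins, *Tmem173*, which encodes STING (1.49 ± 0.20, 3.30e-05), and *Myd88* (1.19 ± 0.20, 0.000307) were higher at T9 and none was lower.

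Between T3 and T9, 14 of the 88 rose and 8 fell, where 8.31% of all genes were called higher and 5.79% lower. Those that fell included *Oasl2*, *Rtp4*, *Rnf213*, *Irgm1*, *Iigp1*, *Usp18*, and *Irf8*. *Oasl2* went from 122 ± 6.12 to 52.7 ± 9.06 CPM (-0.97 ± 0.18 on the log2 scale, adjusted p = 0.00207) and *Usp18* by -1.15 ± 0.25 (0.00656). *Irf8* rests on 34 UMIs at T3 and 2 at T9. Those that rose included *Ifitm10* (2.39 ± 0.60, 0.0160), *Plscr1* (2.34 ± 0.58, 0.0145), *Isg20* (1.99 ± 0.63, 0.0491), and *Tor3a* (1.42 ± 0.29, 0.00430), and on the MHC side *Tapbp* (1.28 ± 0.28, 0.00753) and *H2-K1* (1.12 ± 0.34, 0.0429). On library totals 5 rose and 10 fell (568 and 1052 over all genes, against 1111 and 774 with TMM), and *Tapbp* and *H2-K1* did not pass. Thus *Oasl2*, *Usp18*, *Rtp4*, *Rnf213*, *Irgm1*, and *Irf8* fell on both scales, as *Isg15* did.

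Between T3 and T6 only *Lgals3bp* (0.99 ± 0.18, adjusted p = 0.00711) and *Tmem173* (0.79 ± 0.20, 0.0362) of the list were called, both higher, and without any 1 of the 6 plates 1 pathway gene was called. Between T6 and T9 only *Rnf213* was called (-0.92 ± 0.20, adjusted p = 0.0363).

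**Figure D3:**
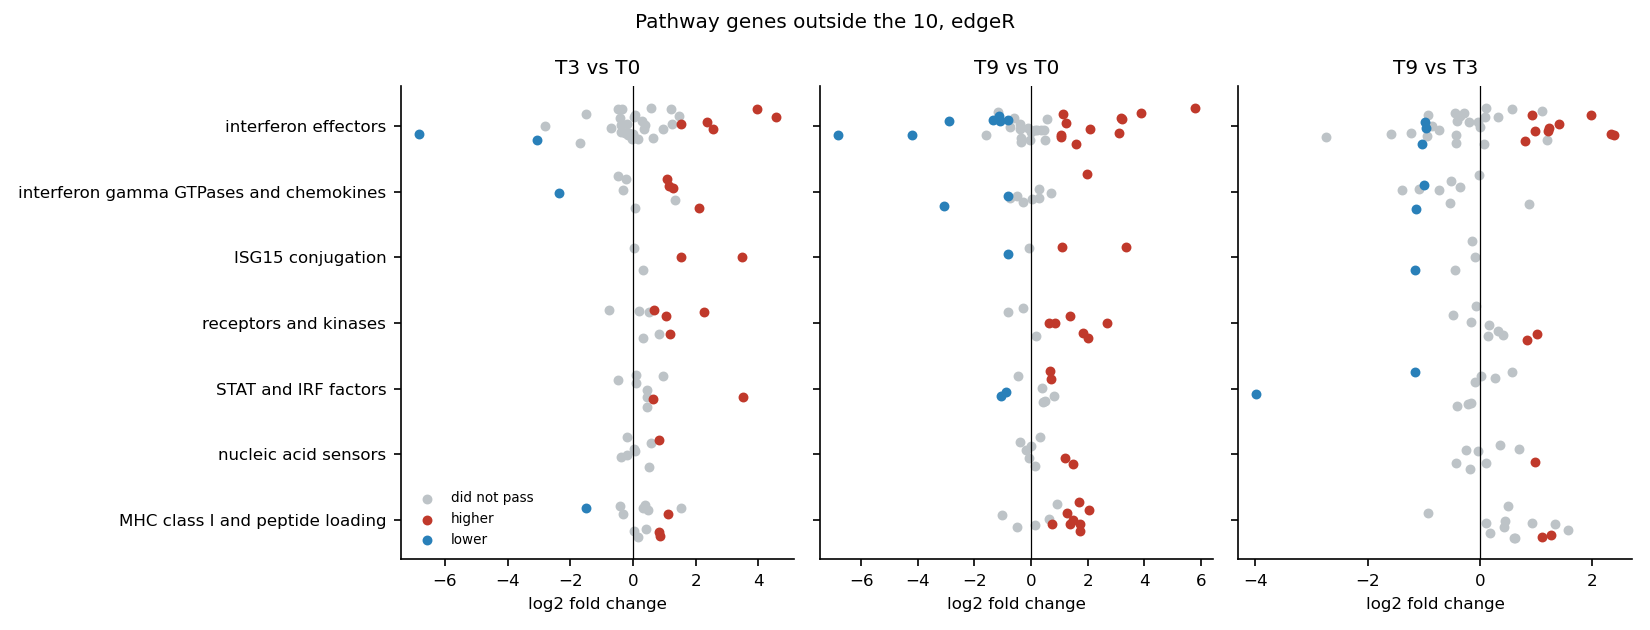
Log2 fold change (horizontal axis, TMM scale) of each tested pathway gene outside the 10, by role, for T3 against T0, T9 against T0, and T9 against T3; red and blue points passed edgeR's test as higher and lower, and grey points did not pass. MHC class I genes and receptors lie mostly right of 0 at T9 against T0, whereas the effectors spread to both sides. *Ifi204*, with no UMI at T3 and T9, is the leftmost blue point against T0, and its fold there depends on the prior count.

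Cells with *Ifit1* UMIs were compared with the rest of their plate, because the co-detection values given next had shown *Ifit1* and *Isg15* in the same cells; the comparison was added after those values were seen. Of thinned T0 cells, 7 of 47 with *Ifit1* also had *Isg15* (14.9%), against 29 of 1024 without (2.83%), and the shares were 22.2% against 7.72% at T6, 9.76% against 9.23% at T3, and 9.52% against 5.96% at T9. *Bst2* was found in 27.7% against 8.89% at T0, 53.7% against 35.2% at T3, 35.6% against 30.1% at T6, and 33.3% against 27.1% at T9. For *B2m* the shares were 31.9% against 43.3% at T0, the other way round, and 65.9% against 50.1% at T3. They were 73.3% against 67.0% at T6 and 85.7% against 77.4% at T9. *Ifi27l2a*, with no UMI at T0, was found in 17.1% against 18.6% at T3, 57.8% against 40.9% at T6, and 71.4% against 47.7% at T9. Thinned cells with *Ifit1* numbered 45 at T6 and 21 at T9. The test that follows uses the same cells and is not independent of these shares.

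There were 336 cells with 1 or more *Ifit1* UMI among the 4594, between 12 and 53 on a plate. Their UMIs were summed per plate, as were those of the other cells, and compared within plates. In 12 of 12 plates *Isg15* was higher in the *Ifit1*-positive cells, with 20.4, 56.1, and 147 CPM as the lowest, median, and highest plate against 7.94, 24.03, and 60.4 CPM in the other cells. Its difference was 1.30 ± 0.18 on the log2 scale (edgeR adjusted p = 5.21e-06). *Ifit3* was higher by 3.46 ± 0.47 (4.60e-06, 10 of 12 plates), *Bst2* by 0.54 ± 0.13 (0.0308, 10 of 12 plates), and *Ifitm3* by 0.43 ± 0.075 (0.000511, 11 of 12 plates). DESeq2 did not call *Bst2* (adjusted p = 0.0517), and its edgeR call was lost without any 1 of 5 plates (adjusted p from 0.0593 to 0.133). *Ifit1* itself chose the cells and is left out. Of the reads that can fall on *Ifit3*, some also fit *Ifit3b*, as said above, but *Ifit1* shares no 36-base window with either.

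The other 5 genes did not pass between these cells. *Ifi27l2a* differed by -0.08 ± 0.13 (adjusted p = 0.902) and *B2m* by 0.13 ± 0.080 (0.638). *Ifi27* (-0.41 ± 0.20, 0.512), *Ifitm1* (0.20 ± 0.22, 0.850), and *Ifitm2* (-0.16 ± 0.076, 0.471) did not pass either.

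Over all 12519 genes tested, 0.951% were called, 0.232% higher and 0.719% lower, in *Ifit1*-positive cells. On library totals 37 were higher and 37 lower, and with size factors 34 and 43, against 29 and 90 with TMM. Besides *Ifit1* the genes called higher with TMM number 28: 4 of the 10, 20 of the 85 tested pathway genes, and 4 that are neither (*BC048679*, *Parp10*, *Casp12*, and *Tagln*). No pathway gene was called lower. The 20 include *Ifit3b* (2.98 ± 0.57, adjusted p = 0.00168), *Trim30a* (2.25 ± 0.50, 0.00935), *Rsad2* (1.86 ± 0.45, 0.0263), and *Mx2* (1.56 ± 0.41, 0.0462) of the effectors, and *Gbp7* (1.71 ± 0.23, 4.19e-06), *Irgm1* (1.45 ± 0.17, 2.37e-07), *Iigp1* (1.28 ± 0.17, 2.18e-06), and *Gbp3* (1.25 ± 0.31, 0.0348) of the GTPases. *Usp18* (0.94 ± 0.21, 0.0108) and *Psmb8* (1.88 ± 0.48, 0.0395) were higher as well. None of the 9 receptors and kinases and none of the 9 tested sensors and their signalling proteins passed.

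With the T0 plates alone, before any TGF-β2, 14 pathway genes and 4 of the 10 were higher (26 higher and 30 lower over all genes), and with the T3, T6, and T9 plates alone 9 and 3, without *Bst2* (adjusted p = 0.281). The 10 cells with 10 or more *Ifit1* UMIs hold 183 of the 833 *Ifit1* UMIs (21.97%), and without them 18 and 4 were higher. Without the first T0 plate the counts were 13 and 3. *Ifit1*-positive cells were deeper, with plate medians between 5884 and 13089.5 UMIs against 4510.5 and 11415 in the others, so depth moves with the class. Tenocyte markers were lower in them for 6 of 10 genes tested, pluripotent markers for 3 of 6, and epithelial markers for 3 of 7, and none was higher; the summed epithelial markers ranged from 0 to 438 CPM against 20.4 to 533 CPM and were lower on 10 of 12 plates. The part of these cells in the result was not tested. With every cell thinned to 3000 UMIs, fewer cells stay positive and 9 pathway genes were higher and 1 lower, where 20 of all genes were higher and 483 lower; of the 10, *Ifit3* stayed higher, *Ifitm2* was lower, and *Isg15* (0.94, adjusted p = 0.105), *Ifitm3* (0.14, 0.606), and *Bst2* (0.33, 0.387) did not pass.

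Of the 8 pathway genes that fell from T3 to T9, 7 (87.5%) are among the 20 that were higher in *Ifit1*-positive cells, which is 35.0% of those 20. Of the 14 that rose, 3 (21.4%) are among them, which is 15.0% of the 20. For T9 against T0, 7 of the 32 that were higher (21.9%, or 35.0% of the 20) and 5 of the 12 that were lower (41.7%, or 25% of the 20) are among them. Of all 85 pathway genes tested between *Ifit1*-positive and other cells, 20 (23.5%) were higher. The shares of 21.4% and 21.9% are near that value. The comparisons between time points and between cells draw on the same plates, and these shares are a description.

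**Figure D4:**
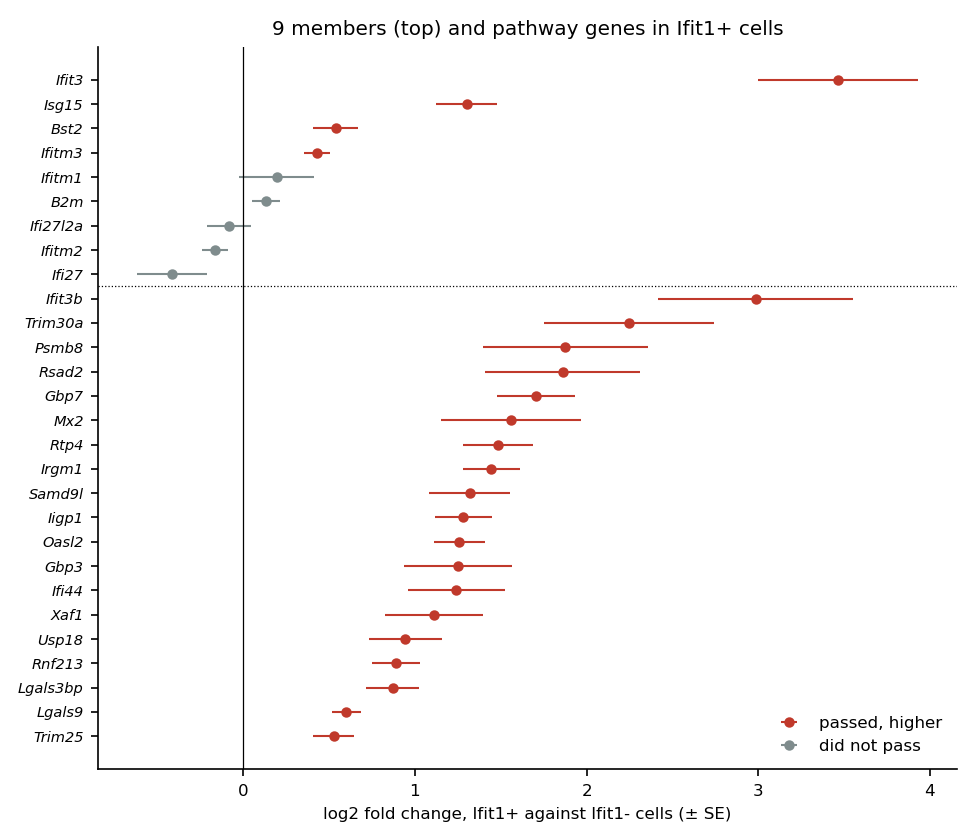
Log2 fold change ± SE (horizontal axis) between *Ifit1*-positive and other cells of the same plate, over 12 plates, for the 9 genes other than *Ifit1* (above the dotted line) and pathway genes called higher (below it); red points passed edgeR's test and grey points did not. *Ifit3* and *Isg15* lie at 3.46 and 1.30, whereas *Ifi27l2a* and *B2m* lie within 0.14 of 0.

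Within the T3, T6, and T9 plates, cells were also split by *Scx*. The 2289 cells with a *Scx* UMI were compared with the 1158 without, plate by plate. *Ifi27* was higher in *Scx*-positive cells on 9 of 9 plates, at 41.1, 68.1, and 94.5 CPM (lowest, median, highest) against 31.5, 47.9, and 83.8 CPM. The difference was 0.65 ± 0.12 on the log2 scale (edgeR adjusted p = 0.00185), and 2.46% of all 12422 genes were called, 1.76% higher and 0.700% lower. *Ifitm1* was lower on 9 of 9 plates, at 11.5, 23.9, and 51.1 CPM against 24.8, 35.3, and 70.5 CPM (-0.68 ± 0.18, adjusted p = 0.0411); that call was lost without T3 replicate 2, T3 replicate 3, or any 1 of the T6 plates, with adjusted p between 0.0523 and 0.122. The other 8 did not pass, *Ifi27l2a* at -0.09 ± 0.10 (0.845) and *B2m* at 0.00 ± 0.056 (0.999) among them. After thinning, *Ifit1* (-1.45) and *Ifitm3* (-0.32) were also lower. *Scx*-positive cells had plate medians of 4744 to 10909 UMIs and the others 4166 to 8408. Other markers differed between these classes too: 4 of 7 pluripotent genes tested (median -1.90) and 3 of 7 epithelial genes (-1.47) were lower in *Scx*-positive cells, while 3 of 8 dividing cell genes and 8 of 10 tenocyte markers, *Scx* itself being listed, were higher. The epithelial markers summed to between 11.3 and 136 CPM in *Scx*-positive and to between 17.0 and 460 CPM in the other cells; the part of such cells in the result was not tested. Of 80 pathway genes tested, 1 passed, *Tmem173* (0.69, higher in *Scx*-positive cells).

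Cells in division were compared with the rest on the same 9 plates. A cell was called dividing when 3 or more of 8 proliferation genes had a UMI, which gave 841 dividing and 2606 other cells. In dividing cells 4 of the 10 were lower, where 18.9% of all 11914 genes were called, 10.4% higher and 8.58% lower (1234 and 1022 genes; on library totals 1471 and 735). *Ifi27l2a* had 71.7, 182, and 240 CPM (lowest, median, highest plate) against 97.8, 247, and 345 CPM in other cells and was lower on 9 of 9 plates (-0.43 ± 0.074, adjusted p = 0.000167). *B2m* was lower on 9 of 9 plates as well, with 286, 391.8, and 500.2 CPM against 357, 438, and 739 CPM (-0.40 ± 0.070, 0.000202). *Ifitm2* (-0.30 ± 0.061, 0.00100, 9 of 9 plates) and *Bst2* (-0.26 ± 0.078, 0.0207, 7 of 9 plates) were lower too. On library totals *Bst2* did not pass (0.0671), nor did it without the third T3 plate (0.0558) or the first T6 plate (0.0547), and with thinned cells neither *Ifi27l2a* (0.0667) nor *Bst2* (0.265) passed while *Ifitm3* did. Dividing cells were deeper, with plate medians of 5916 to 13856.5 UMIs against 4005 to 9102. Of the markers of other cells, 7 of 7 pluripotent genes tested (median log2 difference 3.98) and 5 of 6 epithelial genes (1.78) were higher in dividing cells, and 6 of 10 tenocyte markers were lower. The pluripotent markers summed to between 0 and 1273 CPM in dividing cells and to between 0.407 and 60.2 CPM in the others; their part in these differences was not tested. The listed dividing cell genes summed to between 2137 and 2259 CPM over the T0 plates and to between 548 and 953 CPM over the T9 plates, so dividing cells also became fewer as *Ifi27l2a* and *B2m* became higher; their part in the time course was not tested. Of 78 pathway genes tested, 4 were higher and 4 lower in dividing cells, among them *Plscr1* (1.87), *Cgas* (1.33), and *Ifnar1* (-0.83).

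The genes most like *Ifi27l2a* over the 12 plates, by Pearson correlation of log2(CPM + 1) among 9127 other genes with a mean of at least 10 CPM, were *Mgp* (r = 0.998), which encodes matrix Gla protein, *Lox* (0.995), which encodes the enzyme that cross-links collagen, and *Fam162a* (0.994). *Ifi27* came at rank 133 (0.959), *B2m* at 355 (0.910), and *Ifitm3* at 401 (0.900). *Mgp* had 0 CPM at T0 and 1222, 3278, and 4126 CPM at T3, T6, and T9. Those most like *Isg15* were *Alkbh5* (0.946), an RNA demethylase, *Nptx1* (0.941), a neuronal pentraxin, and *Meox1* (0.924), a homeobox factor of somites, with *Bst2* at rank 26 (0.894). *Ifi27l2a* and *Isg15* had r = 0.631 with each other. The 12 points share 4 time points and the library split, so these are descriptions of shape only.

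In Achilles tendon the comparison of homoKO with Wt asks whether the loss of *Scx* goes with these genes. *Scx* itself was at 103 and 81.3 CPM in Wt and at 23.1 and 25.1 CPM in homoKO. In bulk tissue, fewer cells of a type and less RNA per cell cannot be told apart, and the tissue pieces differed: chondrocyte markers summed to 2346 and 2554 CPM in Wt and to 127 and 105 CPM in homoKO, skeletal muscle markers to 35186 and 62396 CPM in Wt and to 77836 and 80035 CPM in homoKO. Endothelial markers were at 927 and 905 CPM in Wt and at 681 and 561 CPM in homoKO, and immune cell markers at 426 and 256 CPM against 404 and 330 CPM. The part of these cells in the values that follow was not tested.

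All 10 genes were expressed in tendon. Per length, *Ifitm2* (230.3 and 198 RPKM in Wt, 238 and 185 in homoKO), *B2m* (211 and 158, 189 and 189.5), and *Ifitm3* (146 and 128, 178 and 167) were highest. *Ifi27* followed with 84.6 and 69.2 RPKM in Wt and 74.3 and 53.2 in homoKO, and *Bst2* had 24.1 and 30.4 against 12.8 and 16.9. *Ifi27l2a* had 21.8 and 13.0 RPKM in Wt and 17.4 and 12.3 in homoKO, so it was below *Ifi27* in every sample. *Isg15*, *Ifitm1*, *Ifit3*, and *Ifit1* were lowest, *Ifit1* with 27 and 19 counts in Wt and 9 and 8 in homoKO. The Wt pairs of *Ifitm2* and *B2m* overlapped, and the Wt pair of *Ifitm3* lay below both; those of *Bst2* and *Ifi27l2a* did not overlap in Wt but did in homoKO.

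None of the 10 passed between homoKO and Wt in edgeR, where 3.84% of all 14602 genes did (1.77% higher and 2.07% lower), nor in DESeq2. Unadjusted p was under 0.05 for *Bst2* (-0.83 ± 0.26 on the log2 scale, adjusted p = 0.120; 0.0177 without the filter on low counts) and *Ifitm3* (0.38 ± 0.14, adjusted p = 0.202). Both pairs of *Bst2* and of *Ifitm3* kept apart, the former lower and the latter higher in homoKO. *Ifit1* kept apart too but rests on few counts (-1.43 ± 0.76, 0.387). *B2m* (0.09 ± 0.16, 0.834), *Ifi27l2a* (-0.18 ± 0.37, 0.864), and *Isg15* (0.15 ± 0.63, 0.940) differed by less than or about their standard error. With 2 samples in a group, a missed threshold does not show that levels are alike.

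Of 111 pathway genes tested in tendon, 3 passed. *Cxcl9*, a chemokine that draws T cells, was higher in homoKO (2.77), at 2.68 and 1.06 CPM in Wt and 7.82 and 16.5 CPM in homoKO. *Igtp*, a GTPase induced by interferon gamma, was higher (1.81), at 11.6 and 9.55 CPM against 37.7 and 34.2 CPM. *Slfn5* was lower (-1.12), at 22.1 and 24.1 CPM against 10.1 and 10.5 CPM.

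**Figure D5:**
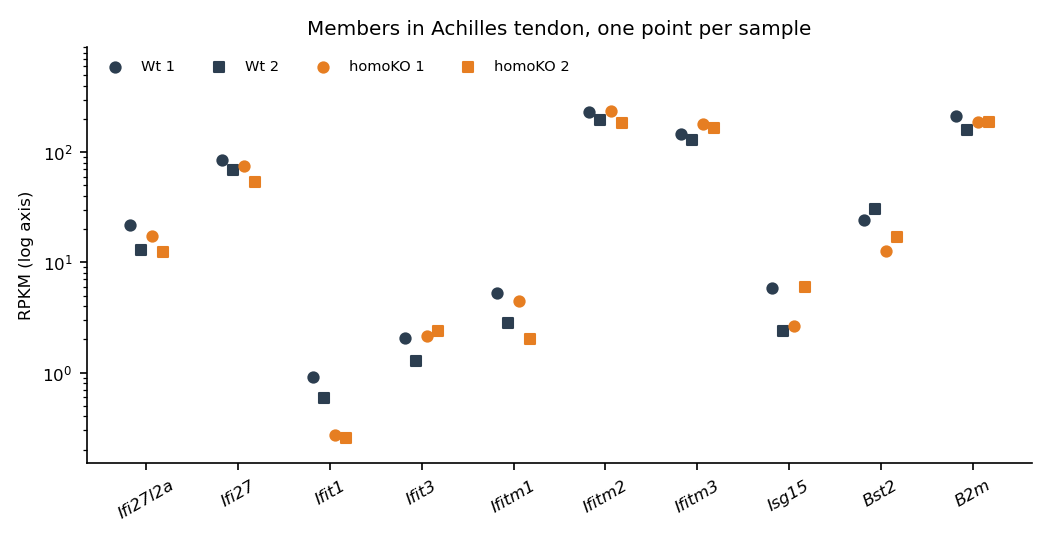
Level of each of the 10 genes in Achilles tendon in RPKM (vertical axis, log scale), 1 point per sample, 2 Wt (dark) and 2 homoKO (orange). *Ifitm2*, *B2m*, and *Ifitm3* lie above 128 RPKM in all 4 samples, *Ifit1* lies below 1 RPKM, and the groups of *Bst2* are apart without passing the test.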

How the data were processed

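The 12 single-cell plates and 4 bulk samples were grouped by their sample labels. The authors trimmed the reads, aligned them to GRCm38 with HISAT2 2.2.1, and counted UMIs per gene and well with featureCounts and UMI-tools 1.0.1; bulk reads were aligned with HISAT2 2.0.4 and counted with featureCounts 1.5.0. Both deposited tables hold whole-number counts without normalization. The annotation release and the strand setting are not given in the sources used here. Of the UMIs, 0.0642% fell on 3 entries outside Ensembl and were left out.

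UMIs of cells with 200 or more genes were summed per plate, or per plate and cell class, and tested with edgeR 4.0.16 in R 4.3.3 (filterByExpr, TMM, quasi-likelihood test, Benjamini-Hochberg over all tested genes, called at 0.05). Time points shared a fit of all 12 plates, cell classes had the plate as a term, and DESeq2 1.42.0 was the other tool. SE is the log2 fold change divided by the square root of F. Other steps used Python 3.11.15, numpy 2.4.6, scipy 1.17.1, pandas 2.3.3, and matplotlib 3.10.9. RPKM used exon lengths of GENCODE on GRCm38. Intervals and limits at 0 counts (3 counts) cover counting error only. The tests were tried on simulated counts. No doublet caller was run: the sort gated single cells.

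The 10 genes and the lists were chosen with earlier results of these data known. Named are the 10, the called genes with the largest change in each list, up to 4 in each direction, and the 3 genes most like *Ifi27l2a* and *Isg15*; others named (such as *Usp18*, *Rnf213*, *H2-K1*, and *Tapbp* between T3 and T9) were picked after their values were seen. Alternatives were another tool, other scalings, no filter, stricter cells, thinning, a block by replicate number, a term for the library split, and leaving out each library.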

Additional observations from a re-analysis of the deposited data

How the results depend on the processing

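Counts below are of pathway genes, then of the 10, called at an adjusted p under 0.05. Library totals, the fits on T0's side of the library split, the fits without T0 or on T0 alone, and every alternative for T9 against T3 and for *Ifit1* cells were added after seeing the data. For T6 against T3 (2 and 1), DESeq2 called 4 pathway genes, library totals 1, no filter 5, the 6 plates alone 1, the split as a covariate 7 and 3, and only the plates on T0's side of the split 4 and 2. For T9 against T6 (1 and 0), DESeq2 gave 4 and 1, no filter 5 and 2, the split 5 and 1, the 6 plates alone 0 pathway genes, and the plates on T0's side 2. For T9 against T3 (22 and 3), no filter and the split each gave 6 of the 10, and the plates on T0's side 12 pathway genes. In tendon (3 and 0), no filter gave 6 and 1, the 1 being *Bst2*. Thinning gave 4 of the 10 between *Scx* classes (2), and 10 and 2 between *Ifit1* classes (20 and 4), where the T3, T6, and T9 plates alone gave 9 pathway genes. Shares of positive cells stood above T0 at T3 for 2 genes, and for 4 with 3000 UMIs, 6 with 5000 UMIs, and 4 with 2 or more UMIs. Shares over all genes were computed only for the first of these counts. The cause of the changes with processing was not tested.

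Same-numbered plates did not deviate together in every pair (correlations from -0.64 to 0.57). The library split falls differently on the numbers, so these correlations cannot show whether a number marks a shared culture. In tendon, 2 samples per group give both numbers the same correlation by construction. The numbers were taken only as names in the main fits. With the replicate block, the pathway genes called were 1 for T6 against T3 and 0 for T9 against T6, and in tendon (correlation 0.107) 5 and 1, *Bst2* (adjusted p = 0.0357). Without the plate term of the cell classes, no replicate block gave 0 and 0 for *Scx*, 1 and 0 for dividing cells, and 2 of the 10 for *Ifit1*.

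Leaving out 1 library, pathway genes called ranged from 18 to 24 (T3 against T0), 1 to 1 (T6 against T3), 0 to 4 (T9 against T6), 37 to 46 (T9 against T0), 12 to 21 (T9 against T3), 2 to 3 (tendon), 1 to 1 (*Scx*), 6 to 9 (dividing), and 13 to 22 (*Ifit1*). Of the 10, they ranged from 0 to 1, 0 to 3, and 2 to 6 for the 3 later steps, 0 to 0 in tendon, 1 to 2, 4 to 4, and 3 to 4 for the classes. *Bst2* in *Ifit1* cells lost its call without any 1 of 5 plates (T0 replicates 1 and 2, T3 replicates 2 and 3, T6 replicate 2). Over all genes, calls ranged from 3001 to 4405 (T3 against T0), 291 to 890 (T6 against T3), and 35 to 852 (T9 against T6). They ranged from 4774 to 6491 (T9 against T0) and 1152 to 2228 (T9 against T3). For the classes they ranged from 204 to 336 (*Scx*), 1949 to 2215 (dividing), and 76 to 136 (*Ifit1*).

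Over all genes, calls moved by over 1.5 times in T6 against T3 (567) with DESeq2 (899), totals (299), no filter (1010), the split (1464), and 6 plates (264). In T9 against T6 (217) they were 568, 90, 684, 787, and 45, with the block 109 and with the plates on T0's side 330. In T9 against T3 (1885) the split gave 3419 and 6 plates 1205, and in tendon (560) no filter gave 1415 and the block 1108. For *Scx* (306) no filter gave 507 and no plate term 37, and for dividing cells (2256) no plate term gave 945 and thinning 1110. For *Ifit1* (119) DESeq2 gave 43, size factors 77, totals 74, no filter 470, no plate term 26, thinning 503, and T0 alone 56.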
